A study of Glycine max with 46 samples.

Results

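The chalcone synthase cluster on chromosome 8 of soybean (Glycine max) is the site of the I locus, and 7 genes of other kinds lie inside it by the order of their gene IDs. They are Glyma.08G109600, Glyma.08G109700, Glyma.08G109800, Glyma.08G109900, Glyma.08G110000, Glyma.08G110100 and Glyma.08G110600. They were taken by name, as 7 of the 56044 genes measured, because earlier values of the same libraries had shown which genes of the cluster were low in the lines W55, UC9 and RM38 and present in W44, T157, UC501 and UC508. The levels in those lines relative to their controls, and those of W43 by organ and seed weight, are the values the genes were chosen by. They are given as a description, and a fit that draws on them lends the choice no support. By ID, 18 genes run from the first to the last chalcone synthase of the cluster: 9 chalcone synthases, these 7 genes, Glyma.08G110200 and Glyma.08G110800.

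Chalcone synthase makes the first flavonoid precursor of the seed coat pigments. The dominant I allele of soybean gives small RNAs that silence chalcone synthase in the seed coat, which stays yellow. The i-i allele does so everywhere except in the hilum, the scar where the seed was attached, and the recessive i allele lets the whole coat darken. Mutations to i in this cluster can remove or rearrange DNA around the chalcone synthase copies, so genes that have no part in pigment can be altered with them.

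The 7 genes differ in kind. Glyma.08G109600 is described as an RNA recognition motif (RRM)-containing protein, a class that binds RNA, and its cDNA of 4262 bases is the longest of the 7. Glyma.08G109700 is described as DNAJ-like 20, with the Arabidopsis symbol J20, a co-chaperone that in Arabidopsis works with Hsp70 in plastids. Glyma.08G109800 is described as low-molecular-weight cysteine-rich 82 (Arabidopsis symbol LCR82), and it is the only 1 of the 56044 genes with that description. In Arabidopsis such proteins are small secreted peptides related to defensins. Glyma.08G109900 is described as a cytochrome P450 of family 71 (Arabidopsis symbol CYP71B34), a class of oxidases used in specialised metabolism. Glyma.08G110000 is described as an HXXXD-type acyl-transferase, a class that moves acyl groups from coenzyme A onto other metabolites. Glyma.08G110100, with 6 transcript models, and Glyma.08G110600, with 1, carry no description.

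RNA was sequenced from 46 libraries in 24 groups of line, tissue and stage. W55 (Williams 55, black coat, i R w1) carries a 138 kb deletion at i, and gave 2 coats of 5-6 mg seeds, coats at 300-400 and 400-500 mg, 2 whole seeds at 5 days after flowering and 1 root of 4 week plants. Its late coats are labelled both as an i mutation and with the genotype i-i RT w1, a disagreement that the labels do not resolve. UC9 (Clark with an i mutation, black coat, i R T W1) carries the same 138 kb deletion and gave 1 coat at 5-6 mg. RM38 (a Clark i isoline, stable brown coat, i r T W1) has no deletion in its labels and gave 1 coat at 25-50 mg. W44 (Williams 44, black coat, i RT w1) is labelled as an i inversion and gave coats at 10-50, 25-50, 50-100, 75-100, 300-400 and 400-500 mg. T157 (imperfect black coat, i R t) and Richland (yellow coat, I R t) each gave coats at 10-25, 50-100, 300-400 and 400-500 mg, a whole seed at 5 days after flowering and a leaf of 4 week plants. UC508 (a Harosoy isoline with defective coats, Def, net) and UC501 (Harosoy, yellow coat), both I r T W1, gave 1 coat each at 5-6 mg. W43 (Williams, yellow coat and black hilum, i-i RT w1) gave coats at 10-50, 25-50, 50-100, 300-400 and 400-500 mg, and roots of 5 day seedlings flooded for 12 or 24 h. W54, labelled as the same line, gave a root of 4 week plants, and a W1 purple flower isoline of Williams gave flowers. A second set of 8 libraries holds W43 hilum and W43 seed coat without hilum at 25-50 and 50-100 mg, with 2 libraries each, stated to be biological repeats.

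Values are RPKM (reads scaled by kilobases of cDNA and by counted alignments in M, for mega), so levels can be set side by side between genes. Library totals ranged from 18.1 M alignments in RM38, with 76.4 M in the next smallest library, to 545 M in a W43 coat without hilum at 50-100 mg. In 3 libraries, models that lack a description took a large share of alignments. These were the W55 coats at 5-6 mg (88.6% and 80.6%) and the W44 coat at 50-100 mg (56.2%). Elsewhere the share was 7.58% to 18.05%. Levels relative to controls that rest on these 3 libraries are also given rescaled, and most tests were repeated without the W44 library. Ranges and medians of RPKM are unscaled wherever these libraries enter. Markers overlapped in part between tissues. The 10 seed storage protein genes summed to a median of 36.5 RPKM in seed coats (0.255 to 1711) and to at most 1.10 RPKM in roots, leaves, flowers and whole seeds at 5 days after flowering, and the W55 coats at 5-6 mg (0.373 and 0.255 RPKM) lay within that range. The seed coat peroxidase gene had a median of 67.4 RPKM in seed coats (2.81 to 2541) and 10.1 to 17.04 RPKM in roots, so coats with low levels were not separated from roots by it. The 154 photosystem and light-harvesting genes summed to at least 16803 RPKM in leaves against at most 4241 RPKM in any other library. No gene matched the marker word chosen for roots. In these bulk samples fewer cells of a type and less RNA per cell cannot be told apart.

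The cysteine-rich peptide gene Glyma.08G109800 was the most abundant of the 7 in young seed coats and was nearly confined to seed in the libraries of lines other than W55, UC9 and RM38. It had a median of 39.3 RPKM in coats of 10-100 mg seeds (range 13.5 to 79.2, 11 libraries) and 39.9 RPKM in the UC508 and UC501 coats at 5-6 mg. In coats of 300-500 mg seeds the median was 11.5 RPKM (range 2.38 to 61.5, 8 libraries), and whole seeds of T157 and Richland had 3.93 and 1.42 RPKM. No read fell on it in 2 leaves and 1 flower library. At most 3 reads fell on it in 3 root libraries, so the vegetative organs sat at the limit that a count of 0 allows (3 reads), while the lowest seed coat library of these lines had 2.38 RPKM. The P450 gene Glyma.08G109900 had a median of 2.95 RPKM in coats of 10-100 mg and 2.69 RPKM in coats of 300-500 mg. It was at 0.0213 and 0.0136 RPKM in the whole seeds of T157 and Richland and at 0 to 0.0176 RPKM in 3 root libraries. Leaves differed between lines, at 0.185 RPKM in T157 and 1.54 RPKM in Richland, with 1 library each.

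The acyl-transferase gene Glyma.08G110000 had the opposite distribution. Flowers had 28.8 RPKM, whole seeds 5.62 RPKM in T157 and 6.64 RPKM in Richland, and leaves 5.62 RPKM in T157 and 0.639 RPKM in Richland. Seed coats at 10-100 mg had a median of 0.407 RPKM and those at 300-500 mg 0.112 RPKM, below the W43 coats at 10-50 mg (1.78 RPKM) and 25-50 mg (1.30 RPKM), which were the highest coat values. The flower library lay above the whole seeds. The T157 whole seed and the T157 leaf both had 5.62 RPKM, so whole seeds and leaves were not clearly apart. Leaves also overlapped flooded roots, at 0.663 and 0.955 RPKM after 12 and 24 h. The DNAJ-like gene Glyma.08G109700 was highest in late coats, with a median of 17.3 RPKM at 300-500 mg and 8.55 RPKM at 10-100 mg. Leaves were the lowest, at 1.81 RPKM in T157 and 2.03 RPKM in Richland, and flooded roots had 2.68 and 2.11 RPKM after 12 and 24 h.

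The other 3 genes were present in every organ. The RRM gene Glyma.08G109600 had medians between 5.45 RPKM in coats of 10-100 mg and 10.1 RPKM in coats of 5-6 mg, and each tissue class overlapped the next in order of its median. Glyma.08G110100 had its highest level in whole seeds, at 12.8 RPKM in T157 and 8.07 RPKM in Richland, above late coats with a median of 5.68 RPKM. Flooded roots, at 1.81 and 2.40 RPKM, and leaves, at 2.61 RPKM in T157 and 2.38 RPKM in Richland, were its lowest classes and overlapped. Glyma.08G110600 varied least, with class medians from 3.36 RPKM in flooded roots to 4.94 RPKM in whole seeds. Whole seeds, late coats and the W54 root (4.92 RPKM) overlapped at the top of its order.

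**Figure D1:**
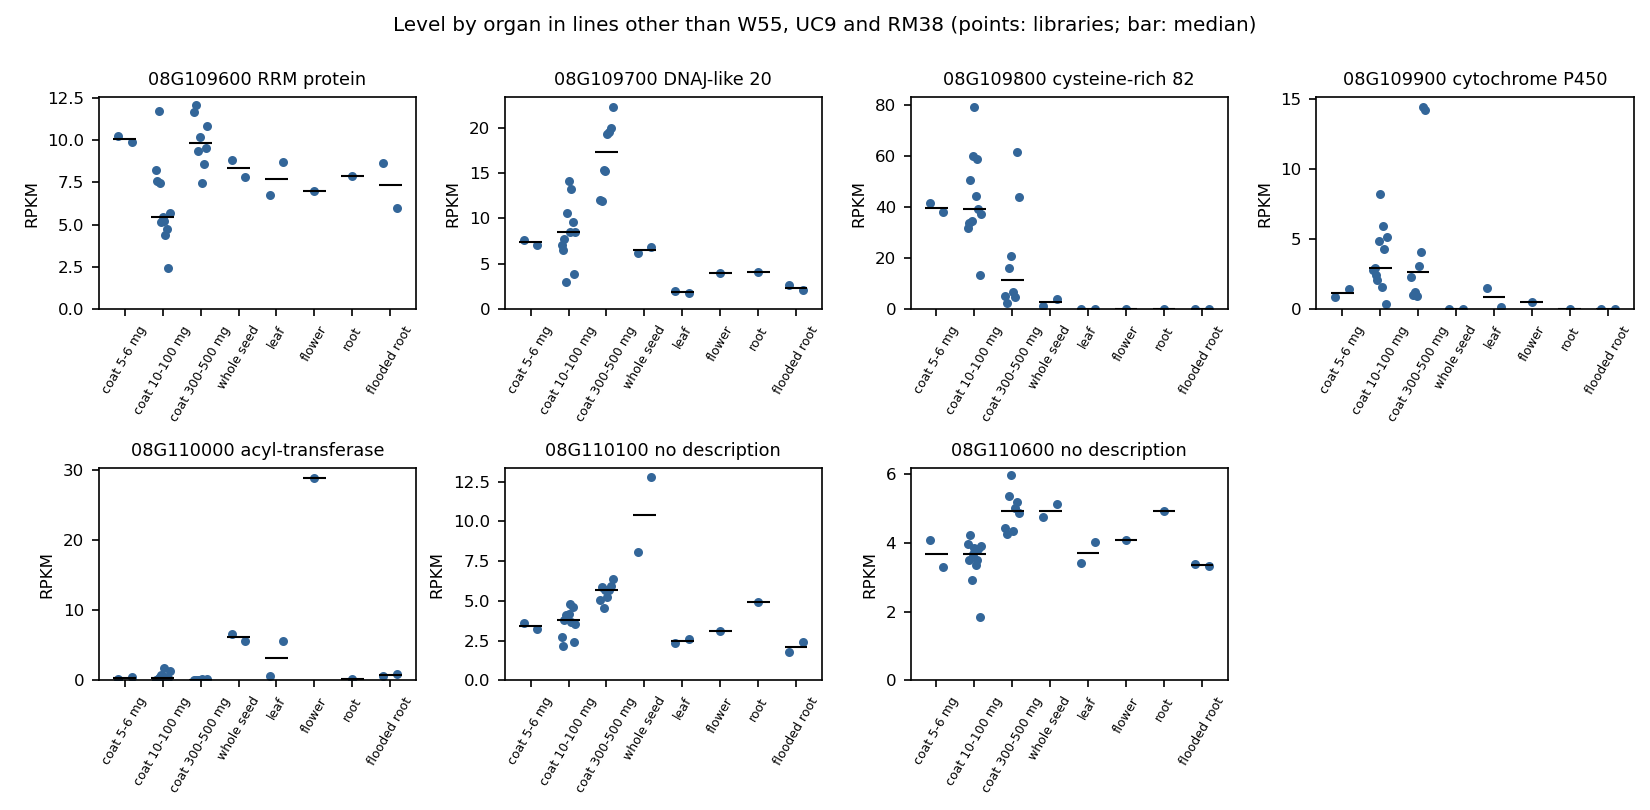
RPKM of each of the 7 genes (1 panel per gene) in each library of lines other than W55, UC9 and RM38, by tissue class, with the class median as a bar. Glyma.08G109800 reaches 79.2 RPKM in seed coats and is near 0 in leaf, flower and root, whereas Glyma.08G110000 is highest in flower at 28.8 RPKM.

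In the late coats of W55, 3 of the 7 genes had at most 5% of the W43 level at both stages, and 4 had at most 10%. Over all genes with at least 1 RPKM in W43, 0.0354% met the first limit and 0.0747% the second. The contrast was used to choose the genes, so nothing is read from the difference. The P450 gene had no read in W55 at 300-400 or at 400-500 mg, against 3.10 and 4.10 RPKM in W43, and 3 reads would be 0.558% and 0.412% of W43. The DNAJ-like gene had 0.163 and 0.180 RPKM in W55, against 19.3 and 19.5 RPKM in W43, or 0.845% and 0.921%. The cysteine-rich gene had 2 reads in each W55 library (0.0297 and 0.0290 RPKM), against 6.93 and 4.86 RPKM in W43. Those 2 reads are 0.428% (95% exact Poisson interval 0.0519% to 1.55%) and 0.597% (0.0723% to 2.16%) of W43, and such intervals cover counting error only.

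The RRM gene lay just outside the 5% limit, with 0.683 and 0.699 RPKM in W55 against 7.44 and 8.61 RPKM in W43, or 9.18% and 8.12%. The 2 genes without a description kept more. Glyma.08G110100 had 0.908 and 0.991 RPKM in W55 against 5.23 and 5.66 RPKM in W43, or 17.3% and 17.5%, and its 6 models ranged from 17.1% to 21.7%. Glyma.08G110600 had 0.788 and 0.935 RPKM in W55 against 4.36 and 5.01 RPKM in W43, or 18.1% and 18.7%. The acyl-transferase gene could not be judged in late coats, since W43 had only 0.173 and 0.105 RPKM there. Among the 6 of these genes that could be measured, the percentages therefore fell into steps along the gene order. They were lowest from Glyma.08G109700 to Glyma.08G109900 and higher on both sides. The steps do not hold for every gene of the cluster. Glyma.08G110800, which lies after Glyma.08G110600, had no read in either late W55 coat, against 2.18 and 1.88 RPKM in W43.

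The genes beside the cluster did not share these low levels. Of neighbours outside it, 12 could be measured, and they ranged from 48.3% to 128.8% of W43 at 300-400 mg and from 50.9% to 148.02% at 400-500 mg. The nearest expressed neighbours were Glyma.08G109100, with 48.3% and 50.9%, and Glyma.08G111000, with 117% and 100.0% at the 2 stages. The 9 chalcone synthases of the cluster summed to 13.5% and 12.5% of W43. A read that matches several near-identical copies can be counted for each of them, so the single chalcone synthase copies are not resolved.

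Roots and whole seeds of W55 extend the pattern to tissue in which other members could be measured. In the W55 root the DNAJ-like gene had 0.0273 RPKM against 4.10 RPKM in the W54 root, or 0.665%, and 0.00658% of all genes, 2 in number, were at or below 5% in that pair. The RRM gene had 15.6%, Glyma.08G110100 26.1% and Glyma.08G110600 35.2% of the W54 root, in 1 library each. In the 2 whole seed libraries of W55 the acyl-transferase gene had 0.0688 and 0.0782 RPKM, against 5.62 RPKM in T157 and 6.64 RPKM in Richland, or 1.12% and 1.27% of their mean. These whole seeds are from another cultivar than their controls. The DNAJ-like gene and the cysteine-rich gene had no read in either W55 whole seed, against 6.81 and 3.93 RPKM in T157 and 6.16 and 1.42 RPKM in Richland. Glyma.08G110600 was at 6.17% and 7.55% there, lower than in the W55 root and late coats, and Glyma.08G110100 was at 36.3% and 25.4%. Over all genes 1.14% and 1.06% were at or below 5% in the 2 whole seeds.

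The W55 coats at 5-6 mg had each of the 7 genes at or below 0.172 RPKM, but 11 measurable neighbours outside the cluster were also low there, with a median of 13.2% and 20.1% of the UC508 and UC501 mean. Over all genes, 29.2% and 11.3% were at or below 5%. These controls are Harosoy coats, another cultivar than W55. Rescaled over described models, the neighbours had medians of 106% and 95.2%. On that scale the RRM gene had 0.672% and 1.25%, Glyma.08G110600 1.74% and 2.15%, and Glyma.08G110100 30.7% and 23.9%. No read of the DNAJ-like, cysteine-rich, P450 or acyl-transferase gene was found in these 2 libraries.

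UC9, the Clark line with the same deletion in its label, gave the same 4 genes at or below 10% as W55. The cysteine-rich gene had 0.0676 RPKM in UC9, against 38.1 RPKM in UC508 and 41.7 RPKM in UC501, or 0.170% of their mean. The DNAJ-like gene was at 4.16% (0.307 RPKM in UC9, against 7.12 and 7.64 RPKM), the P450 gene at 4.52% (0.0525 RPKM, against 1.47 and 0.853 RPKM) and the RRM gene at 9.31% (0.939 RPKM, against 9.92 and 10.3 RPKM). Glyma.08G110100 was at 25.3% and Glyma.08G110600 at 22.7%. In this comparison 0.0816% of all genes were at or below 5% and 0.197% at or below 10%, while the 9 chalcone synthases summed to 52.6%. UC9 had no read of the acyl-transferase gene, and its controls had only 0.552 and 0.237 RPKM. UC9 and its Harosoy controls also differ in cultivar and in their I and R genotypes.

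RM38, whose label names no deletion, was low for the first 5 genes of the run and not for the last. The DNAJ-like gene had 3 reads in RM38 (0.16 RPKM, 1.87% of 8.55 RPKM in W43 at 25-50 mg, 95% exact Poisson interval 0.386% to 5.47%). The cysteine-rich gene was at 3.95% (1.47 against 37.3 RPKM), the P450 gene at 9.34% (0.481 against 5.16 RPKM) and the RRM gene at 9.58% (0.545 against 5.69 RPKM). The acyl-transferase gene had no read in RM38 against 1.30 RPKM in W43, where 3 reads would be 7.67%. In contrast, Glyma.08G110100 was at 65.1% (2.29 against 3.52 RPKM) and Glyma.08G110600 at 103% (4.00 against 3.90 RPKM). In RM38, 0.249% of all genes were at or below 5% of W43 and 0.375% at or below 10%, the cultivars differ, and RM38 is the library with the lowest depth. Across W55 late coats, UC9 and RM38 together, 2 genes of 23165 measurable (0.00863%) were at or below 5% in each, Glyma.08G109700 and Glyma.08G109800. At or below 10% were 5 genes (0.0216%), namely those 2, the RRM and P450 genes, and Glyma.02G179400, a gene with no description on another chromosome.

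**Figure D2:**
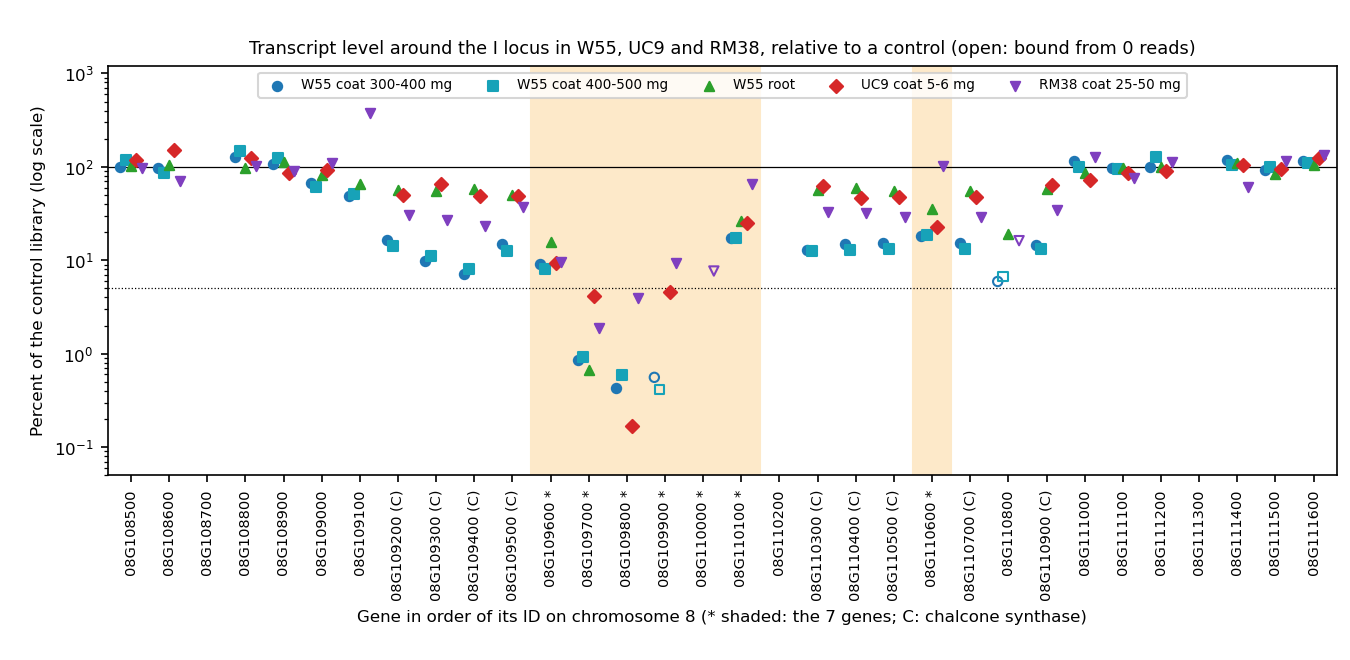
Percent of the control RPKM (log scale) for genes in ID order around the cluster, in W55 coats and root, UC9 and RM38, where the control had at least 1 RPKM. The 7 genes are shaded, chalcone synthases are marked C, open symbols are bounds from 0 reads, the solid line is 100% and the dotted line 5%. Values drop between Glyma.08G109600 and Glyma.08G110000 and lie higher outside the cluster, from 48.3% to 148.02% in late W55 coats, and Glyma.08G110600 in RM38 is at 103%.

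The lines W44, T157 and UC508 also have altered coats. In all 10 pairs of coats of equal weight (5 of W44 and W43, 4 of T157 and Richland, 1 of UC508 and UC501), 5 of the 7 genes could be measured in every pair, and 4 of these 5 had at least 25% of the control in each, against 94.7% of all genes so measurable. Glyma.08G109600 was at 55.9% to 127.96%, Glyma.08G109700 at 29.5% to 128.6%, Glyma.08G110100 at 65.1% to 114% and Glyma.08G110600 at 52.7% to 140%. For the cysteine-rich and P450 genes 1 pair fell below the limit, that of the W44 coat at 50-100 mg, with 23.0% and 6.41% of W43. That is the W44 library in which 56.2% of alignments fell in models without a description. Rescaled over described models it had 47.3% and 13.2%, so the P450 gene remained low in that library. The lowest values of the other 4 genes come from the same library, and rescaled they were 115%, 60.6%, 134% and 108% of W43 in the order given. The acyl-transferase gene was below 1 RPKM in most control coats, and at 10-50 mg it had 0.197 RPKM in W44 against 1.78 RPKM in W43, or 11.1%.

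**Figure D3:**
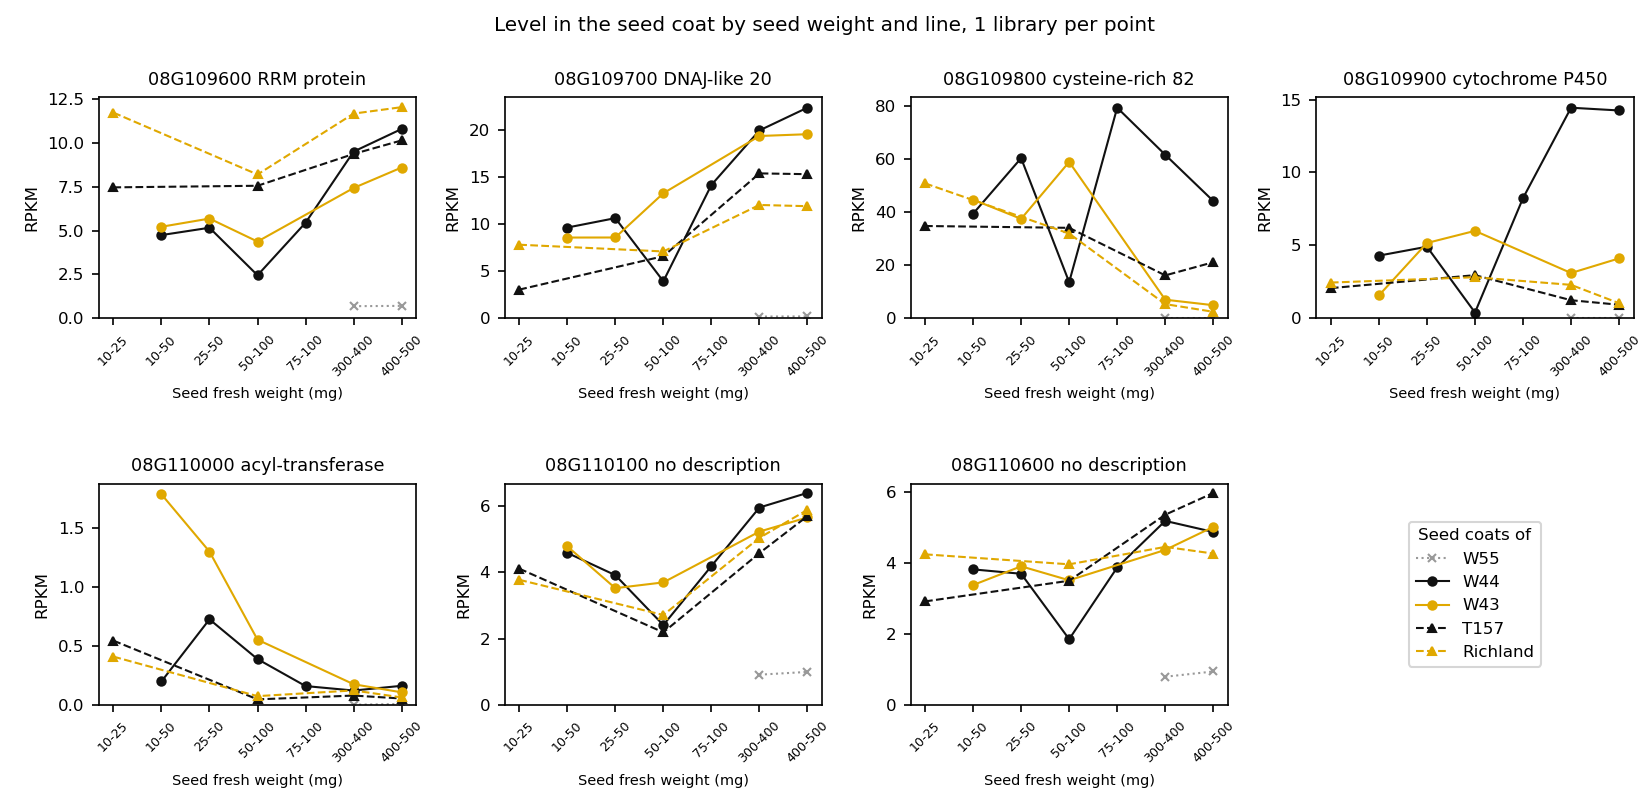
RPKM of each gene against seed fresh weight in coats of W55, W44, W43, T157 and Richland, with 1 library per point. In late coats W55 has at most 0.991 RPKM of each gene, and Glyma.08G109800 is at 61.5 and 44.1 RPKM in W44 against 6.93 and 4.86 RPKM in W43, while the dip of W44 at 50-100 mg is the library with a large share of reads in models without a description.

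Coat age was tested in Richland, T157 and W44. The choice of genes had used the W44 and T157 levels relative to their controls, but not the difference between late and early coats of these lines, so the libraries are not independent of the choice. Late coats (300-500 mg, 6 libraries) of these lines were compared with early coats (10-100 mg, 8 libraries) in 1 limma fit on log2(RPKM + 1), with line as a covariate and the Benjamini-Hochberg adjusted p given for each gene. The replicates of this fit are stages and lines with 1 library each, and the labels do not say that they are separate plants, so the p-values measure the spread between these libraries. Of 29172 genes 44.4% were called, 20.7% higher and 23.6% lower in late coats. Of 6 members tested, 4 rose and none fell. The acyl-transferase gene, with a mean under 1 RPKM, was not tested, and had 0.0524 to 0.16 RPKM in late coats and 0.0452 to 0.723 RPKM in early coats.

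The DNAJ-like gene Glyma.08G109700 rose most. Its late coats had 19.9 and 22.3 RPKM in W44, 15.4 and 15.3 RPKM in T157, and 12.0 and 11.9 RPKM in Richland. Its early coats had 9.61, 10.6, 3.91 and 14.1 RPKM in W44 at 10-50, 25-50, 50-100 and 75-100 mg, 3.02 and 6.57 RPKM in T157, and 7.79 and 7.07 RPKM in Richland. Late coats were above the early coats of the same line in all 3 lines, and overall only the W44 coat at 75-100 mg overlapped the late range. The log2 difference was 1.13 ± 0.24 (SE, limma adjusted p = 0.00102). Of the 6 other genes described as DNAJ-like 20, 2 could be tested, and 1 rose, Glyma.05G152800 (0.50 ± 0.18, limma adjusted p = 0.0376).

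The RRM gene Glyma.08G109600 rose by 0.60 ± 0.19 (limma adjusted p = 0.0142), with a median of 10.5 RPKM in late coats (9.38 to 12.1) and 6.46 RPKM in early coats (2.45 to 11.7). The call was lost without the line W44 (0.29, adjusted p = 0.0642) or without the W44 coat at 400-500 mg (adjusted p = 0.0639). Of 9 other genes with the same description, 8 were tested and 1 rose, Glyma.13G075300 (limma adjusted p = 0.00749). Glyma.08G110100 rose by 0.61 ± 0.16 (limma adjusted p = 0.00431), and kept its call with each library left out, at 0.54 to 0.69. Its median was 5.80 RPKM in late coats (4.58 to 6.40) and 3.85 RPKM in early coats (2.19 to 4.59). A single early library touched the late range. Glyma.08G110600 rose by 0.43 ± 0.16 (limma adjusted p = 0.0337). It had 4.26 to 5.96 RPKM in late coats and 1.85 to 4.24 RPKM in early coats. These ranges did not overlap, and the share of all genes of which that holds is not given. Leaving out any 1 T157 library, the W44 coat at 300-400 mg, the W44 coat at 400-500 mg or the whole line W44 took this last call past the threshold (adjusted p 0.0581 to 0.0854).

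The cysteine-rich and P450 genes did not pass over the 3 lines together, at -1.06 ± 0.47 (limma adjusted p = 0.0791) and 0.34 ± 0.42 (limma adjusted p = 0.538). Both depended on W44: without that line the difference was -2.01 for the cysteine-rich gene (limma adjusted p = 0.0104) and -0.62 for the P450 gene (limma adjusted p = 0.0229). The 9 chalcone synthases of the cluster were all lower in late coats, with a median log2 difference of -0.80. Since reads are not resolved between the copies, these are not 9 separate observations. Of 12 other neighbours tested 2 rose, with a median of -0.0099 over the 12. Over all genes tested the median was -0.0028. Markers of other cells moved with coat age. The 10 seed storage genes summed to 61.4 to 563 RPKM in late coats and 1.86 to 172 RPKM in early coats. The 154 photosystem and light-harvesting genes summed to 281 to 539 RPKM in late coats and 867 to 2259 RPKM in early coats. The 51 flower marker genes, described with pollen or anther, summed to 98.5 to 195 RPKM in late coats and 322 to 755 RPKM in early coats. Their part in the changes of the 4 genes was not tested.

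The lines differed in the late coats of the cysteine-rich gene. These late coats had 61.5 and 44.1 RPKM in W44, 16.1 and 21.0 RPKM in T157 and 5.27 and 2.38 RPKM in Richland. Its early coats had 39.3, 60.2, 13.5 and 79.2 RPKM in W44 at the 4 weights in ascending order of the lower limit, 34.7 and 34.0 RPKM in T157 and 50.7 and 31.8 RPKM in Richland. Early coats of the 3 lines overlapped. Late coats of each line lay apart from those of the other lines, in the order W44, T157, Richland. How many of all genes separate in this way is not given. Levels of T157 relative to Richland were also used to choose the genes. W43 coats had 44.6, 37.3, 58.8, 6.93 and 4.86 RPKM at 10-50, 25-50, 50-100, 300-400 and 400-500 mg, so its late coats were close to those of Richland, which also has a yellow coat. Any link with coat colour was not tested.

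Within lines, the late effect on the cysteine-rich gene was -3.16 ± 0.60 in Richland (limma adjusted p = 0.000968, with 24.5% of genes called), -0.86 ± 0.60 in T157 (limma adjusted p = 0.354) and 0.37 ± 0.52 in W44 (limma adjusted p = 0.651). The difference of the effects, a test added after the values were seen, was 3.53 ± 0.79 for W44 minus Richland and missed the threshold (limma adjusted p = 0.0645, with 0.466% of genes called). It passed with median-ratio scaling (adjusted p = 0.0144), with scaling over described models (0.0156) and without the W44 coat at 50-100 mg (0.0185). Over 18 settings its adjusted p ranged from 0.0144 to 0.426, and the size from 3.03 to 3.97. For T157 minus Richland the difference was 2.30 ± 0.84 (limma adjusted p = 0.822, with 0.0206% of genes called). That difference is made of the T157 levels relative to Richland that were used to choose the genes, so it is a description only.

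The P450 gene rose in late coats of W44, by 1.78 ± 0.50 (limma adjusted p = 0.0151, with 23.9% of genes called). W44 had 14.4 and 14.3 RPKM in late coats and 4.29, 4.90, 0.384 and 8.24 RPKM in early coats at 10-50, 25-50, 50-100 and 75-100 mg. T157 had 1.23 and 0.916 RPKM in late coats and 2.06 and 2.95 RPKM in early coats, and Richland had 2.28 and 1.02 RPKM in late coats and 2.44 and 2.81 RPKM in early coats. So each late coat was above each early coat in W44 and below each early coat in T157 and Richland, with 1 library per line and weight. The share of all genes with such a pattern is not given. The difference of the effects was 2.27 ± 0.76 for W44 minus Richland (limma adjusted p = 0.266) and 2.53 ± 0.76 for W44 minus T157 (limma adjusted p = 0.259, with 0.261% of genes called), and neither passed. Without the W44 coat at 50-100 mg both passed, at 1.71 (adjusted p = 0.0424) and 1.97 (adjusted p = 0.0255). Of 28 other genes with the same P450 description 3 could be tested for coat age over the 3 lines, of which Glyma.07G267100 rose by 2.29 and Glyma.08G326900 and Glyma.18G080200 fell by 1.60 and 1.81 on the log2 scale.

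The choice of genes named W43 levels by organ and coat weight in both tables. In the dissected W43 coats the only tissues are hilum and the rest of the coat. The contrast between them is therefore not independent of the choice. Its p-values for these genes are given as a description and lend the choice no support. The black hilum was set against the yellow rest of the coat in 1 limma fit over 8 libraries with stage as a covariate. Of 29296 genes 40.0% were called, 13.4% higher and 26.6% lower in the hilum. Of the 6 members tested 1 was called, the P450 gene, a share below that of all genes.

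The P450 gene Glyma.08G109900 had 0.891, 0.846, 2.08 and 1.53 RPKM in the hilum (25-50 mg, then 50-100 mg), and 4.11, 4.44, 12.9 and 6.51 RPKM in the coat without hilum. The groups did not overlap, and each stage was lower in the hilum. For all genes, the share whose groups separate is not given. The log2 difference was -1.68 ± 0.19 (limma adjusted p = 0.000594), against a median of -0.11 over all genes tested. It kept its direction and its call in each alternative run, at -2.24 to -1.47. Of the other genes with its description, 2 were tested and missed the threshold.

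The other 5 genes tested overlapped between hilum and coat. The cysteine-rich gene had 34.1 to 54.7 RPKM in the hilum and 26.9 to 43.9 RPKM in the coat without hilum (0.27 ± 0.17, limma adjusted p = 0.23), and the DNAJ-like gene 7.67 to 10.5 RPKM in the hilum and 4.91 to 10.1 RPKM in the coat (0.26 ± 0.15, limma adjusted p = 0.213). The RRM gene had 3.96 to 4.50 RPKM in the hilum and 4.28 to 7.19 RPKM in the coat (-0.31 ± 0.12, limma adjusted p = 0.0637). It was called without the first library of the coat at 50-100 mg (adjusted p = 0.0245) or the first library of the hilum at 50-100 mg (adjusted p = 0.0452). Without that hilum library the cysteine-rich gene (0.43, adjusted p = 0.0363) and Glyma.08G110100 (-0.29, adjusted p = 0.0464) were called as well. With all libraries Glyma.08G110100 was at -0.16 ± 0.13 (limma adjusted p = 0.359) and Glyma.08G110600 at -0.32 ± 0.16 (limma adjusted p = 0.154).

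All 9 chalcone synthases of the cluster were lower in the hilum in this fit, with a median log2 difference of -1.24. Their reads are not resolved between copies, so these are not 9 separate observations. The i-i allele does not silence chalcone synthase in the hilum, and why these copies were lower there was not tested. Of 13 other neighbours tested 3 were higher and 6 lower. Markers differed in part with the dissection. Seed storage genes summed to 15.0 to 194.1 RPKM in the hilum and 2.77 to 19.8 RPKM in the coat. The seed coat peroxidase gene had 76.0 to 386 RPKM in the hilum and 315 to 1031 RPKM in the coat. The 51 flower marker genes, described with pollen or anther, summed to 746 to 903 RPKM in the hilum and 564 to 598 RPKM in the coat. Their part in the P450 result was not tested. With median-ratio scaling the median of all genes moved by more than 0.1, to 0.03, and 55.6% of the called genes were higher in the hilum, against 33.5% without it.

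**Figure D4:**
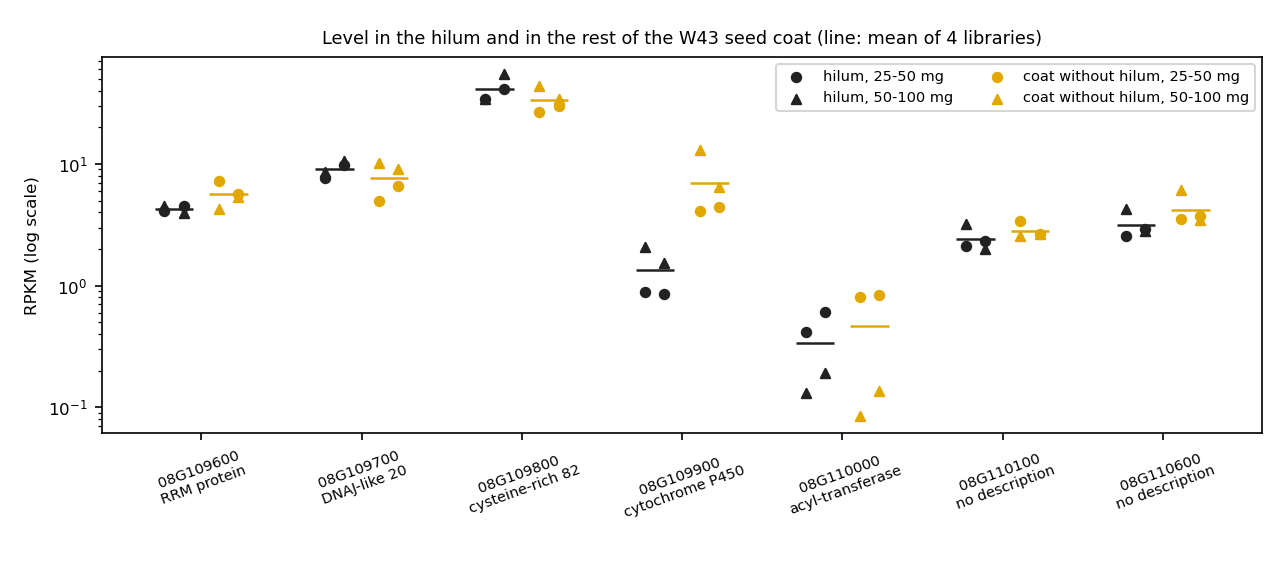
RPKM (log scale) of the 7 genes in the 4 hilum libraries (dark, left) and the 4 libraries of coat without hilum (yellow, right) of W43, with circles for 25-50 mg, triangles for 50-100 mg and a line at the mean. The groups separate for Glyma.08G109900 (0.846 to 2.08 against 4.11 to 12.9 RPKM) and overlap for the other 6 genes. The share of all genes whose groups separate is not given.

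The same 8 libraries also compare 50-100 with 25-50 mg seeds, a contrast in which limma called 1.07% of all genes. W43 values by coat weight were used to choose the genes, so no test of them is given here. The P450 gene was higher at 50-100 mg in both tissues, with 2.08 and 1.53 RPKM in the hilum and 12.9 and 6.51 RPKM in the coat, against 0.891 and 0.846 RPKM in the hilum and 4.11 and 4.44 RPKM in the coat at 25-50 mg. The acyl-transferase gene had 0.131 and 0.191 RPKM in the hilum and 0.0847 and 0.135 RPKM in the coat at 50-100 mg, and 0.416 and 0.609 RPKM in the hilum and 0.812 and 0.843 RPKM in the coat at 25-50 mg, so the 2 stages did not overlap. The whole W43 coats had the same order, with 0.551 RPKM at 50-100 mg and 1.30 RPKM at 25-50 mg. How many of all genes have stages that do not overlap is not given, so nothing is read from it.

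Across the 29 libraries of lines other than W55, UC9 and RM38, the 7 genes did not share 1 pattern. On log2(RPKM + 1), Pearson's r between pairs of the 7 ranged from -0.46 (cysteine-rich and acyl-transferase genes) to 0.72 (cysteine-rich and P450 genes). These libraries share lines, stages and depth, so r is a description. The genes most like each member, among 32217 genes outside the neighbourhood, were sought by the same measure. For the cysteine-rich gene they were Glyma.13G164700 (r = 0.96) and Glyma.17G106400 (r = 0.95), both without a description, and Glyma.20G018600 (r = 0.95), a cytochrome P450 of family 87. For the DNAJ-like gene they were the galactosyltransferase Glyma.02G025000 (r = 0.96), Glyma.16G179300 without a description (r = 0.95) and Glyma.07G051700 (r = 0.95), a SAUR-like auxin-responsive gene.

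For the P450 gene the GDSL-like lipase gene Glyma.13G231500 (r = 0.93) and the sialyltransferase-like genes Glyma.12G088200 and Glyma.12G088100 (both r = 0.89) came first. The acyl-transferase gene was most like Glyma.13G298100 (expansin B3, r = 0.91), Glyma.13G361700 (gibberellin 3-oxidase 1, r = 0.90) and Glyma.05G204500 (r = 0.88), a gene with CBS and PB1 domains. These 3 reached 23.8 to 60.2 RPKM in their highest library and had a median of at most 0.0177 RPKM in late coats. For Glyma.08G110100 the first was Glyma.05G152400 (r = 0.99), which has no description and was at 84.2% and 89.0% of W43 in the late coats of W55. Next came Glyma.06G163100 (crumpled leaf, r = 0.89) and Glyma.05G087600 (an ENTH/VHS family protein, r = 0.89). The RRM gene and Glyma.08G110600 had looser matches, led by Glyma.17G005500 (r = 0.85) and Glyma.16G017800 (metal tolerance protein A2, r = 0.87).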

How the data were processed

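RNA abundance was taken from 2 deposited tables, 1 with 38 libraries of lines and tissues and 1 with 8 libraries of W43 hilum and coat without hilum. The deposited values are RPKM that the authors computed over 88647 transcript models. Reads were mapped with Bowtie, per the submitters' processing notes; no source used here gives its version or the genome build. Libraries were made with unstranded or stranded kits, per the labels' protocols, and which library used which is not stated, so antisense and overlapping transcripts cannot be told apart. A read that matches several models or copies can be counted in several rows.

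The longest cDNA of a gene stood for it. Read numbers and library totals (18.1 to 545 M alignments, M for mega) were recovered from RPKM and length, and 100% of values came out whole to within 0.01 reads. A count of 0 allows up to 3 reads. No coordinates or sequences are given. The 4 columns of values with no sample label were left out.

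The members, gene lists and marker lists were chosen with earlier results of these data known. Named beside the members are, for each, the 3 genes with the highest Pearson r on log2(RPKM + 1) over 29 libraries, the nearest expressed neighbours of the cluster, its chalcone synthases as a group, and genes sharing a description with a member. For tests, log2(RPKM + 1), a scale that understates the change of low genes, was fitted in limma 3.58.1 (R 4.3.3; lmFit, then eBayes, trend on). Genes averaging 1 RPKM or more over the fitted libraries were kept, and called at a Benjamini-Hochberg adjusted p under 0.05. Lost and kept levels are single libraries set against a control with at least 1 RPKM. The fit was tested on simulated data. Tables and figures used python 3.11.15, pandas 2.3.3, numpy 2.4.6 and matplotlib 3.10.9.

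Library numbers in the titles of the dissected coats fall into 2 series. Deviations from group means correlated at 0.44 to 0.66 between same-numbered libraries in each pair of groups, so the series pair the libraries, and the fit with the series as a block is an alternative. Further alternatives were median-ratio scaling, scaling over described models, a pseudocount of 0.1, no filter, the most abundant model and each library left out. The tests of differences between lines were added after the data were seen.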

Additional observations from a re-analysis of the deposited data

Results flagged for a closer look

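Single libraries stood apart from the other 3 of their group in 4 cases. The libraries of each of these groups differ in seed weight and are not all replicates, so no chance rate is given for this flag. Glyma.08G109600 had 8.21 RPKM in the Richland coat at 50-100 mg, and the next lowest Richland coat had 11.7 RPKM. Glyma.08G110000 had 0.543 RPKM in the T157 coat at 10-25 mg, and the next highest T157 coat had 0.0775 RPKM. Glyma.08G110100 had 3.37 RPKM in the first coat without hilum at 25-50 mg, with 2.68 RPKM next, and Glyma.08G110600 had 6.14 RPKM in the first coat without hilum at 50-100 mg, the deepest library, with 3.72 RPKM next.

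The late effect on the P450 gene Glyma.08G109900 had opposite directions between lines. Every late coat was above every early coat in W44 and below every early coat in T157 and Richland. How many of all genes have such a pattern is not given. The difference was 2.27 for W44 against Richland and 2.53 for W44 against T157 on the log2 scale, and neither passed with all libraries (limma adjusted p = 0.266 and 0.259).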

How the results depend on the processing

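Low in both late W55 coats were 3 genes in each alternative with the 5% limit and 4 with a limit of 10%, and the number kept in W44, T157 and UC508 was 4 to 5, with 5 without the W44 coat at 50-100 mg. The count of genes called between hilum and coat stayed within 1.5 times, at 8028 to 16212. Between 50-100 and 25-50 mg, 313 genes were called. That count was 0 with no filter on low values (9998 at an unadjusted p under 0.05), 619 with a pseudocount of 0.1, 2632 with the library series as a replicate block, and 0 to 50 with any 1 of the 8 libraries left out (4796 to 7323 at an unadjusted p under 0.05). With the block 14763 genes were called between hilum and coat, and it changed no member's call there. The late against early count was 12939, and 20893 with no filter, where more genes were tested. Signs turned for the fitted difference of Glyma.08G110100 between stages, a value near 0. It was 0.036 with median-ratio scaling, 0.029 with the most abundant model and -0.13 to 0.075 with 1 library left out. W43 coat weight was used to choose the genes, so this is an estimate only, with no p-value. For Glyma.08G109900 the late effect was -0.62 with W44 left out (limma adjusted p = 0.0229), where the other two lines alone were fitted, and the T157 minus Richland difference was -0.61 to 0.089 with 1 library left out. The late effect on Glyma.08G109800 passed with W44 left out (-2.01, limma adjusted p = 0.0104), with scaling over described models (-1.12, adjusted p = 0.0459) and without the W44 coat at 50-100 mg (-1.31, adjusted p = 0.0184) or at 300-400 mg (-1.40, adjusted p = 0.0283). The causes of the other shifts were not tested. Loss and retention rest on 1 library per line and stage, and RM38 on 18.1 M alignments.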

Other observations

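A run of gene IDs on chromosome 5 carries 3 descriptions of the 7 genes in reverse order, and it was noticed after the values were seen. Glyma.05G152900 shares the RRM description of Glyma.08G109600, Glyma.05G152800 the DNAJ-like 20 description of Glyma.08G109700, and Glyma.05G152500 the acyl-transferase description of Glyma.08G110000. Between them lie Glyma.05G152700, without a description, and Glyma.05G152600, a cytochrome P450 of family 71, and beyond them Glyma.05G152400, without a description. Soybean is an ancient polyploid in which many genes have a second copy on another chromosome, and whether these are such copies was not tested. Pearson's r of log2(RPKM + 1) over 29 libraries was 0.99 for Glyma.05G152400 with Glyma.08G110100, 0.94 for Glyma.05G152700 with Glyma.08G109800, 0.89 for Glyma.05G152500 with Glyma.08G110000 and 0.82 for Glyma.05G152600 with Glyma.08G109900. It was lower for the RRM pair (0.68) and the DNAJ-like pair (0.35).

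In lines where the chromosome 8 genes were low, 3 of the chromosome 5 genes had the following levels. Glyma.05G152700 had 19.2 and 13.5 RPKM in the late coats of W55 and 16.2 and 12.8 RPKM in those of W43, and 39.9 RPKM in RM38 against 17.03 RPKM in W43 at 25-50 mg, but was at 58.8% of the control in UC9. Glyma.05G152800 had 2.61 and 2.83 RPKM in W55 and 2.96 and 2.24 RPKM in W43, and was at 141% of the control in UC9 and 64.0% in RM38. Glyma.05G152900 was at 71.05% and 58.3% of W43 in the late coats of W55, 74.9% of the control in UC9 and 32.5% in RM38. Glyma.05G152500 followed the acyl-transferase gene in being highest in flowers, at 14.8 RPKM.

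Another chromosome 5 gene, Glyma.05G153300, had an r of 0.87 with Glyma.08G110600. It had 21.6 RPKM in RM38 against 4.03 RPKM in W43 at 25-50 mg, or 537%, in the line where Glyma.08G110600 was at 103%. In the late coats of W55 it was at 72.1% and 73.5% of W43. How many reads the genes of such a pair share was not tested.

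Glyma.08G110800, a gene without a description inside the cluster, was chosen for mention after its values were seen. It had no read in the late W55 coats, against 2.18 and 1.88 RPKM in W43, and 0.427 RPKM in the W55 root, against 2.26 RPKM in the W54 root. Other lines had 0.246 to 0.708 RPKM in W44 coats and at most 0.212 RPKM in T157, Richland, UC508 and UC501 coats, against 1.88 to 5.68 RPKM in W43 coats. In dissected W43 coats it had 0.640 to 1.66 RPKM in the hilum and 3.23 to 4.05 RPKM in the coat without hilum. These values rest on 0 to 177 reads per library outside the deepest one, which had 543.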
